A study of Mus musculus with 12 samples.

Results

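The immediate early response genes described here are the 10 rows of the deposited count table named Fos, Fosb, Jun, Junb, Jund, Egr1, Egr2, Ier2, Atf3 and Dusp1, of 23337 gene symbols in all. All 10 symbols were in the table, 9 had at least 1 count, and those 9 also passed the filter on low counts, which left 12217 genes for testing. They were measured by bulk RNA sequencing in 12 libraries of microglia, the resident macrophages of the brain, from wild type male C57BL6N mice at postnatal day 60. The study compared 4 brain regions, cortex, hippocampus, striatum and cerebellum, with 3 libraries each and no treatment in any group. For each library the dissected tissue of 3 to 5 mice was combined, dounced on ice and depleted of myelin, and 3000 live TMEM119+ cells (CD45low and CD11b+ as well) were sorted. Nothing in the labels says whether libraries of a region share mice, so the p-values below speak only of variation from library to library, which can be technical.

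Immediate early genes are transcribed within minutes of a stimulus from factors already present in the cell, without new protein synthesis, and their mRNAs are short-lived. FOS and JUN family proteins pair through leucine zippers to form the transcription factor AP-1, JUN proteins can also pair with each other or with ATF3, and EGR1 and EGR2 are zinc finger factors induced by growth factor and MAP kinase signalling. In microglia these genes are known to be sensitive to the way in which cells are taken out of the tissue, enzymatic digestion at warm temperature being a strong inducer.

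The genes were examined by their place and structure in GENCODE M21 (GRCm38, the same assembly as the mm10 build of the files). Jun (chromosome 4, 95049034 to 95052222), Junb (chromosome 8, 84974484 to 84978718), Jund (chromosome 8, 70698949 to 70700616) and Ier2 (chromosome 8, 84661331 to 84662852) have a main transcript of 1 exon, whereas the median tested gene has 9 exons and 2.26% have 1. Fos (chromosome 12, 85473890 to 85477273), Fosb (chromosome 7, 19302696 to 19310051), Atf3 (chromosome 1, 191170296 to 191218039) and Dusp1 (chromosome 17, 26505590 to 26562128) have 4 exons in theirs. Those of Egr1 (chromosome 18, 34859823 to 34864984) and Egr2 (chromosome 10, 67535475 to 67542188) have 2. The motif ATTTA, part of the AU-rich elements that shorten the life of many mRNAs, occurred 4 times in the 3′ UTR of each of Fos, Jun and Dusp1, against a median of 1 over the tested genes. Egr2 and Atf3 held 3 each, Junb and Egr1 2 each and Fosb and Jund 1 each. At least 3 were held by 33.8% of the tested genes with a 3′ UTR. Per kb of UTR there were 4.91 in Fos, 3.24 in Jun, 5.80 in Dusp1 and 0.466 in Fosb. The median per kb was 1.40 over tested genes with UTRs of 200 bases or more. The longer form TTATTTATT was found once in the Fos 3′ UTR and 2 times in that of Dusp1, and 7.13% of the tested genes with a 3′ UTR hold it. Ier2 held no ATTTA. The antisense genes Junos and Gm11175 overlap exons of Jun and Jund, and because the cDNA kit does not mark strand, reads of such pairs cannot be told apart.

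Promoters of 300 bases (250 before the start and 50 after it) were found in RefSeq for 8 of the 10 members, those of Egr2 at 5 starts. None was found for Egr1 and Ier2, so the motifs of those members were not examined. TGACG was present in a promoter of 6 of the 8 members. It was in a promoter of 35.8% of the 8737 tested genes with one in the table, and in 20.8% of the 32851 promoters of all genes. The palindrome TGACGTCA was present in 1 of 8 members, against 3.74% of tested genes and 1.79% of all promoters, and TGACATCA in 1 of 8, against 2.14% and 3.62%. The GC box GGGCGG was present in 6 of 8 members and in 69.1% of tested genes (35.7% of all promoters), so the members' share was near that of tested genes. The CArG box, the motif of serum response factor, was found in Egr2 alone among the 8 (1.52% of tested genes and 1.63% of all promoters), and the AP-1 motif TGACTCA in none (4.28% and 5.20%). Counts for members and tested genes take any of a gene's promoters. A match describes letters in a window only. Sequence farther than 250 bases before the start was not searched, so a motif not found here may still lie outside the window.

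Sequence before the start site is shown for 4 members whose levels are set side by side below. They are Fos, which was low, Fosb, which had no count, and Jun and Dusp1, which were both highest in the same library. Sequences are from RefSeq (GRCm38.p6), 5′ to 3′ on the gene's strand, and end at the annotated start or where a GENCODE exon of the gene begins. Capitals mark the cyclic AMP response element core TGACG and the AP-1-like octamer TGACATCA, searched on both strands.
Fos (chr12:85473640-85473889, plus strand): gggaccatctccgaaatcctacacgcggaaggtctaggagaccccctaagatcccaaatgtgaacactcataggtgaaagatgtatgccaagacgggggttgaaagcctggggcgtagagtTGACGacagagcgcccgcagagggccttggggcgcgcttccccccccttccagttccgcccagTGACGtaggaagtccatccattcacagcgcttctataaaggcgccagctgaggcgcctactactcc
Fosb (chr7:19310052-19310295, minus strand): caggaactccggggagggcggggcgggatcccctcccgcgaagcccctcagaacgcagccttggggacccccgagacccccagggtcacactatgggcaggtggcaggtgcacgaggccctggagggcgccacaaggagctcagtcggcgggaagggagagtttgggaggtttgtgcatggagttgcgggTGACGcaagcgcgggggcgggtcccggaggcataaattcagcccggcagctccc
Jun (chr4:95052223-95052472, minus strand): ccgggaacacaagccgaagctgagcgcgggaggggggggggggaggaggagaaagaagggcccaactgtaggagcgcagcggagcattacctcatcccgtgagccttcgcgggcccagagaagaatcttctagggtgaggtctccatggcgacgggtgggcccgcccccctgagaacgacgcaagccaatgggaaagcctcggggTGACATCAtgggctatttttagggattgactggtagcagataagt
Dusp1 (chr17:26508520-26508722, minus strand): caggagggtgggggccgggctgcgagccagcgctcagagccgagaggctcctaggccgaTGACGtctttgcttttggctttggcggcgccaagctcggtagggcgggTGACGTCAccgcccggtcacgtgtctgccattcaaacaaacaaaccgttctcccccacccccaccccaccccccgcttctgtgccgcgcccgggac
The Fos sequence holds TGACG 129 and 66 bases before the start, and the Fosb sequence holds it 60 bases before. In Jun the octamer TGACATCA begins 45 bases before the start. In Dusp1 a TGACG lies 191 bases before the start and the full palindrome TGACGTCA, which contains the core on both strands, 143 bases before.

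Total counts ran from 6479839 to 14833340 per library, and the 10 members together took 387 to 757 CPM (the usual per-library scaling of counts, here with TMM-scaled library sizes). Striatum 2 was unlike the rest: r of its log2 CPM with any other library was 0.748 to 0.771, while r between the remaining 11 was 0.858 to 0.936. Among 10018 genes averaging 50 counts or more it lacked counts for 9.84%, and the remaining libraries lacked them for 0.0399% to 0.439%. Microglia markers of the fixed list of 12 genes summed to 30887 to 42937 CPM per library. Neuronal markers (12 genes) summed to 7.00 to 38.5 CPM and endothelial and mural markers (10 genes) to 17.9 to 43.0 CPM. The cerebellar granule cell markers Cbln1 and Gabra6 were at 0 throughout and the endothelial marker Cldn5 at 0 in 11 libraries. Other markers of these lists had counts. Meg3 was at 2.06 to 30.4 CPM, Snap25 at 0 to 5.39 and Stmn2 at 0 to 13.6. Pecam1 was at 0 in striatum 2 and at 12.7 to 42.3 CPM in the remaining libraries. Oligodendrocyte markers (10 genes) summed to 100.1 to 200.5 CPM and astrocyte markers (8 genes) to 36.3 to 113 CPM. Border-associated macrophage markers (10 genes) summed to 661 to 1648 CPM in 11 libraries and to 2221 CPM in striatum 2, where Stab1 made 1452 CPM. Lymphocyte markers summed to 82.0 CPM in striatum 1 and to 0 to 25.6 CPM elsewhere. Choroid plexus and ependymal markers (8 genes) summed to 795 CPM in striatum 2 and to 0 to 275 CPM elsewhere.

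Per length of the main transcript, the members spread over a wide range of levels. Junb stood at a mean of 91.0 CPM per kb, Jun at 62.1, Jund at 46.6 and Ier2 at 25.6, above the median tested gene at 12.1 CPM per kb. Atf3 at 8.97, Dusp1 at 7.55, Egr1 at 3.13, Fos at 1.11 and Egr2 at 0.719 CPM per kb lay below that median. Junb thus exceeded 92.0% of the tested genes with a coding transcript and Fos exceeded 12.6% of them. As in any bulk sample, fewer cells with a transcript and less of it in each cell cannot be told apart in these levels. The 3 Jun genes supplied 78.8% to 86.9% of all member counts in each library.

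**Figure D1:**
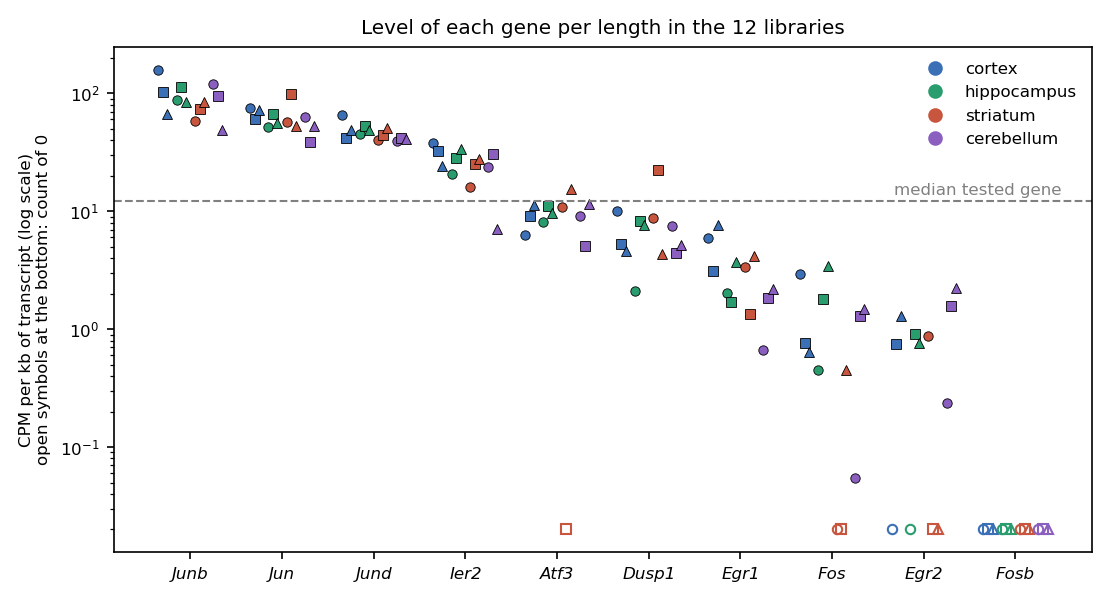
Level of each of the 10 genes per kb of its main transcript (log scale) in the 12 libraries, coloured by region, with open symbols at the bottom for a count of 0 and a dashed line at the median tested gene (12.1 CPM per kb). Junb, Jun and Jund lie above the line in every library, Egr1, Fos and Egr2 lie below it in every library, and Fosb has no count.

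Among the FOS genes, Fosb, which codes for a partner of the JUN proteins in AP-1, had 0 counts in all 12 libraries. With 127914194 counts in all, 0 allows up to 3 counts, or 0.0234 CPM over the libraries together and 0.194 to 0.485 CPM in single libraries. The same was true of 6152 other symbols of the 23337. No source used here gives the annotation or settings of the authors' counting, so whether Fosb reads could be counted is unknown, and these limits apply only if they could. Fos, the best known immediate early gene and the main FOS partner in AP-1, was low. Its cortex libraries held 6.15, 1.62 and 1.36 CPM (libraries 1, 2 and 3), and its hippocampus libraries 0.949, 3.79 and 7.23 CPM. The striatum libraries held 0, 0 and 0.950 CPM, and the cerebellum libraries 0.116, 2.73 and 3.11 CPM. Cortex 1 and hippocampus 3 were highest, every region spread widely, and all 3 striatum libraries lay below all 3 cortex libraries. A count of 0 allows up to 0.355 CPM in striatum 1 and 0.485 CPM in striatum 2. Mean Fos was 3.99 ± 3.14 CPM in hippocampus, 3.04 ± 2.70 in cortex, 1.99 ± 1.63 in cerebellum and 0.317 ± 0.549 in striatum (SD, n = 3 each), and for each pair of neighbours in this order the 95% interval of the difference held 0.

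Among the JUN genes, Jun, the founding AP-1 subunit, was at 239, 192 and 232 CPM in cortex and at 167, 215 and 180.4 CPM in hippocampus. It was at 183, 312 and 167 CPM in striatum and at 200.2, 123 and 167 CPM in cerebellum. Striatum 2 was the highest library and cerebellum 2 the lowest, 2.54-fold apart, and the regions overlapped. Means were 221 ± 25.4 CPM in cortex, 221 ± 79.1 in striatum, 187 ± 24.9 in hippocampus and 163 ± 38.7 in cerebellum (SD, n = 3 each). Junb, a JUN protein that can also oppose JUN at target genes, was at 286, 185 and 122 CPM in cortex, 159, 205 and 153 in hippocampus, 106, 133 and 152 in striatum and 216, 171 and 88.2 in cerebellum. Cortex 1 was highest and cerebellum 3 lowest, so that the extremes lay in the same regions as values near the middle, while the 3 striatum libraries lay just below the 3 hippocampus libraries. Mean Junb was 130.1 ± 22.8 CPM in striatum, 159 ± 64.9 in cerebellum, 172 ± 28.2 in hippocampus and 198 ± 82.5 in cortex. Jund, the JUN gene known for steady rather than inducible expression, varied least of the 9 detected members, with a coefficient of variation of 0.161 over the 12 libraries. It was at 110.2, 69.4 and 80.9 CPM in cortex, 74.9, 87.4 and 82.2 in hippocampus, 67.6, 73.2 and 84.1 in striatum and 65.2, 69.5 and 68.5 in cerebellum. The cerebellum libraries were the most alike and lay below all 3 hippocampus libraries, with means of 67.8 ± 2.25 and 81.5 ± 6.24 CPM, beside 86.8 ± 21.0 in cortex and 75.0 ± 8.39 in striatum. Within each of the 3 JUN genes, neighbours in the order of means differed by less than the larger SD of the pair.

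Atf3, a stress-induced bZIP factor, was at 12.5, 18.0 and 22.5 CPM in cortex, 16.1, 21.8 and 19.2 in hippocampus and 18.2, 10.2 and 22.8 in cerebellum. In striatum it was at 21.4 and 30.9 CPM in libraries 1 and 3 and had no count in striatum 2. The highest and the lowest value of the series thus came from the same region. Of the 6933 genes with at least 130 counts in each of the other 11 libraries, as Atf3 had, 203 had no count in striatum 2, and no other library lacked any of its own 5900 to 5984 such genes. Regional means of Atf3 ran only from 17.0 ± 6.38 to 19.0 ± 2.84 CPM.

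Among the EGR genes, Egr1, a zinc finger factor induced by growth factors and neuronal activity, was at 26.5, 13.8 and 34.1 CPM in cortex and 9.17, 7.57 and 16.6 in hippocampus. It was at 15.1, 5.98 and 18.6 CPM in striatum and 3.01, 8.20 and 9.82 in cerebellum. All 3 cortex libraries lay above all 3 cerebellum libraries, and hippocampus and striatum overlapped both. Means fell in the order cortex (24.8 ± 10.2 CPM), striatum (13.2 ± 6.52), hippocampus (11.1 ± 4.79) and cerebellum (7.01 ± 3.56; SD, n = 3 each), and both striatum against hippocampus and hippocampus against cerebellum differed by less than the larger SD of the pair. Summed neuronal markers stood at 34.6, 20.8 and 7.00 CPM in the cortex libraries and at 19.9, 38.5 and 28.7 CPM in the cerebellum libraries, which overlap, and their part in the Egr1 levels was not tested. Egr2, its relative, had no count in cortex 1, hippocampus 1, striatum 2 and striatum 3 and was at 0.695 to 6.59 CPM in the other 8 libraries. Its highest values, 4.69 and 6.59 CPM, were in cerebellum 2 and 3, where Egr1 was low.

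Ier2, a small nuclear protein gene induced together with AP-1 genes, was at 57.2, 49.1 and 36.6 CPM in cortex, 31.3, 43.3 and 51.3 in hippocampus, 24.5, 38.3 and 41.9 in striatum and 35.8, 47.0 and 10.7 in cerebellum. Cerebellum 3 was far below the rest and the regions overlapped, with means of 47.6 ± 10.4, 42.0 ± 10.1, 34.9 ± 9.18 and 31.1 ± 18.6 CPM in cortex, hippocampus, striatum and cerebellum. Dusp1, the phosphatase that switches off p38 and JNK kinases in negative feedback, was at 20.0, 10.5 and 9.19 CPM in cortex, 4.22, 16.4 and 15.2 in hippocampus and 14.8, 8.75 and 10.3 in cerebellum. In striatum it was at 17.5, 44.6 and 8.71 CPM. The mean was 23.6 ± 18.7 CPM in striatum and 11.3 ± 3.16 to 13.2 ± 5.89 in the other regions. Striatum 2 held more Dusp1 than any other library, and it was also the library with most Jun. Its marker sums for choroid plexus and for border-associated macrophages were the highest, the latter mostly through Stab1 (1452 CPM). Of the macrophage markers only Stab1 and Lyve1 were highest there. Mrc1, F13a1, Pf4, Cbr2 and Folr2 were higher in other libraries, and Cd163, Ms4a7 and Cd209f had no count in striatum 2. The part of such RNA in the Jun and Dusp1 levels was not tested.

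**Figure D2:**
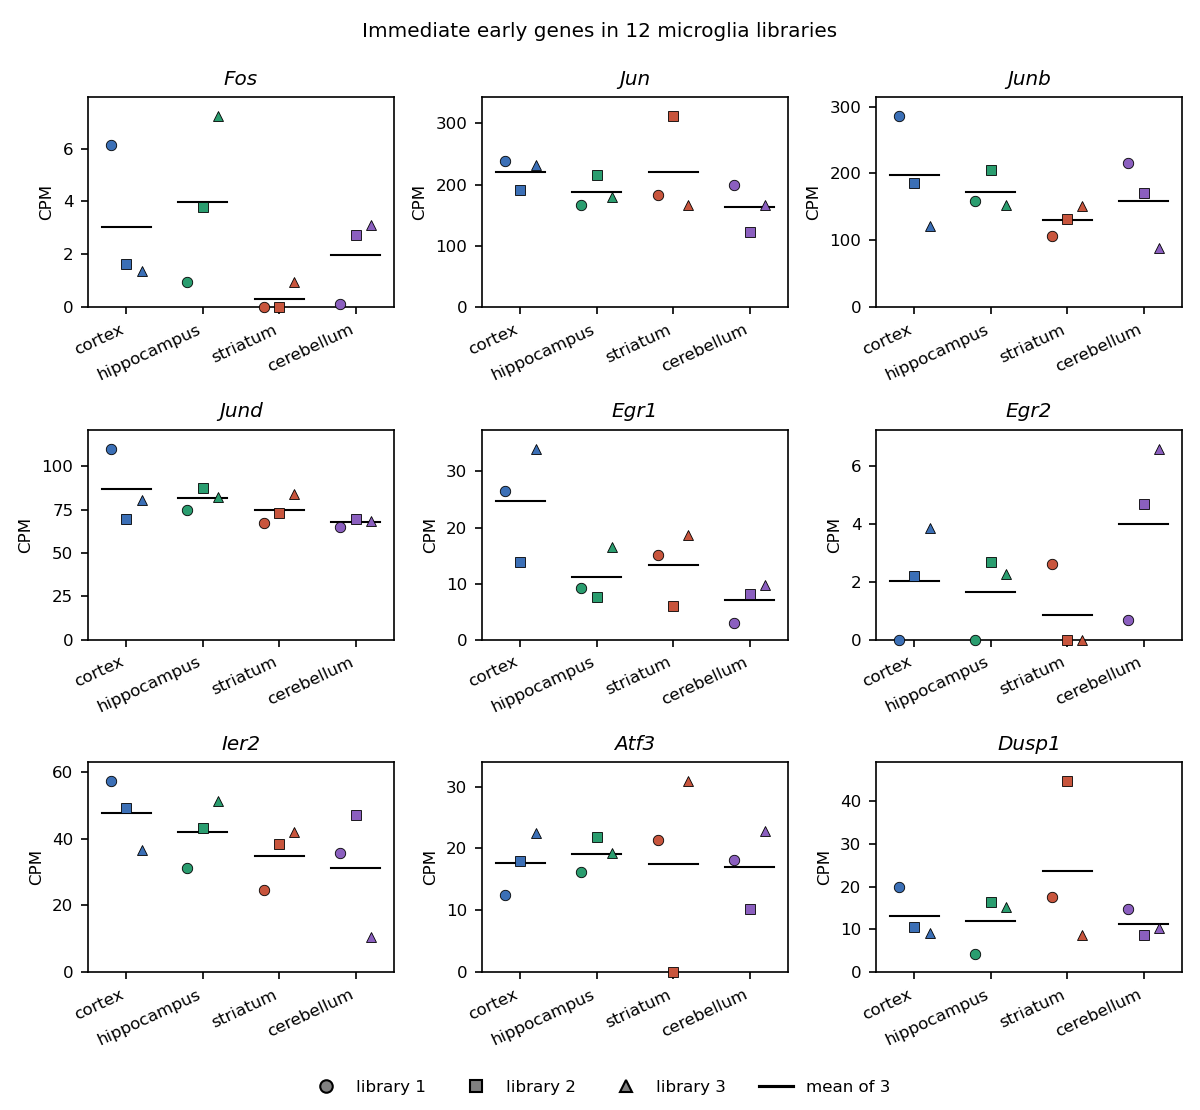
CPM of the 9 detected genes in each of the 12 libraries by region (symbols mark library 1, 2 and 3; black lines are means of 3), each panel on its own linear axis from 0. Jund is nearly flat, Egr1 has its highest mean in cortex (24.8 CPM), and striatum 2 is the highest library for Jun and Dusp1 and at 0 for Fos, Egr2 and Atf3.

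Whether any region differed was tested for each gene in a fit to all 12 libraries. By edgeR's quasi-likelihood test over the 4 regions no member passed, each of the 9 having an adjusted p = 1.00 (Benjamini-Hochberg; 0% of the 12217 genes were called). Egr1 came closest (F = 2.85), ranking 421 by p, and 1.82% of all genes had an unadjusted p under 0.05. In the 6 pairs of regions no member passed either, nor did any other gene (0% called in each pair). The smallest adjusted p among the 54 tests of members was 0.80 by edgeR.

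In cerebellum against cortex, 8 of the 9 members lay lower in cerebellum, with a median log2 difference of −0.36, beside a median of 0.01 and 49.1% lying lower over all genes tested. Egr1 had its largest difference of the 6 pairs there, −1.82 on the log2 scale (SE 0.66, 95% interval −3.24 to −0.40; edgeR adjusted p = 1.00), and ranked 25 by p. It was 1 of 54 member tests with an unadjusted p under 0.05, and the only one. Over all genes the share with such a p was 1.55% in this pair, 1.01% in hippocampus and 5.59% in striatum against cortex, 4.34% in striatum and 1.28% in cerebellum against hippocampus, and 2.4% in cerebellum against striatum. The libraries did not overlap, with cerebellum lower, for Egr1 alone of the 9, and for 2.93% of all genes (6.75% in either direction). Jun differed by −0.44 (95% interval −0.99 to 0.12), and by −0.27 without cerebellum 2. Jund differed by −0.36 (−0.85 to 0.14), and by −0.16 without cortex 1. Ier2 differed by −0.61 (−1.62 to 0.40), by −0.20 without cerebellum 3 and by −1.04 without cerebellum 2. Without cortex 1, where Junb, Jund and Ier2 were highest, the number lying lower dropped to 5 of 9, with Fos at 0.41, Junb at 0.04 and Dusp1 at 0.19.

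Libraries of cortex and cerebellum with the same replicate number had weakly correlated deviations from their region means (r = 0.10 to 0.29). A comparison within these 3 pairs was chosen for that reason from the same data and added after the values were seen. Jun, Junb, Egr1 and Ier2 were lower in cerebellum in 3 of 3 pairs, which made 4 of 9 members, and 15.2% of all genes were lower in this way. In an edgeR fit of these 6 libraries with the pair as a block, the difference was −0.46 for Jun (95% interval −0.79 to −0.13), −1.86 for Egr1 (−3.06 to −0.67) and −0.82 for Ier2 (−1.62 to −0.01). These 3 intervals left out 0, as those of 7.31% of the 11534 genes in that fit did (unadjusted p under 0.05). Junb differed by −0.33 with an interval whose upper end lay at 0.000213. No gene passed after adjustment, each of these 4 members having an edgeR adjusted p = 0.68. In a fit of the same 6 libraries without the block, the intervals of Jun (−0.98 to 0.10) and Ier2 (−1.69 to 0.46) held 0. That of Egr1 (−3.05 to −0.60) did not.

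In striatum against cortex, 8 of 9 members lay lower in striatum as well, with a median of −0.45 (−0.06 and 54.3% over all genes). It was 8 of 9 with a median of −0.52 without striatum 2, and 6 to 8 when single libraries were left out in turn. Among the 8 were Jun at −0.00085 and Atf3 at −0.013, whose sign changed under 6 and 2 of the 17 alternatives. Junb differed by −0.60 (SE 0.34, 95% interval −1.35 to 0.14; edgeR adjusted p = 0.80), and by −0.24 without cortex 1. Fos differed by −3.13 (95% interval −6.79 to 0.54), and was the 1 member whose libraries did not overlap, against 5.96% of all genes lower in this way and 10.6% in either direction. Dusp1 lay higher, by 0.83 (−0.67 to 2.33).

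In hippocampus against cortex, 7 of 9 members lay lower in hippocampus, with a median of −0.18 (−0.02 and 52.9% over all genes), and no member's libraries separated (3.05% of all genes did with hippocampus lower and 6.69% in either direction). The number lying lower was 5 to 8 when single libraries were left out in turn. Egr1 again had the largest difference of a member, −1.16 (95% interval −2.55 to 0.24). These 3 comparisons share the cortex libraries, so that a high or low cortex value enters all of them.

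The other 3 pairs leave cortex out. In cerebellum against hippocampus 8 of 9 lay lower in cerebellum (median −0.20, with 0.01 and 48.7% over all genes). This count was 6 to 8 when single libraries were left out in turn. The libraries separated for Jund (difference −0.27, 95% interval −0.76 to 0.23), as they did with cerebellum lower for 3.55% of all genes, and 7.63% in either direction. In striatum against hippocampus 6 of 9 lay lower in striatum (median −0.12, with −0.05 and 53.8% over all genes). Fos had the largest difference of any member in any pair there, −3.52 (SE 1.72, 95% interval −7.24 to 0.21; edgeR adjusted p = 0.95), and −3.00 without striatum 2. Without striatum 3 no Fos count was left in striatum, so no size could be given. Junb had striatum libraries that lay below all hippocampus libraries (−0.40, −1.15 to 0.34), as 6.59% of all genes did (11.5% in either direction). In cerebellum against striatum 6 of 9 lay lower in cerebellum (median −0.15, with 0.06 and 44.2% over all genes), and no member's libraries separated (2.4% of all genes did with cerebellum lower and 6.34% in either direction). Dusp1 differed by −1.06 in that pair (95% interval −2.57 to 0.45) and by −0.22 without striatum 2. Egr2 differed by 2.19 there (−2.38 to 6.75), by 0.28 with the replicate number as a block and by 3.92 with limma-voom, and without striatum 1 no Egr2 count was left in striatum. For Atf3 the interval in its pair with the smallest p, cerebellum against hippocampus, ran from −2.40 to 2.08.

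**Figure D3:**
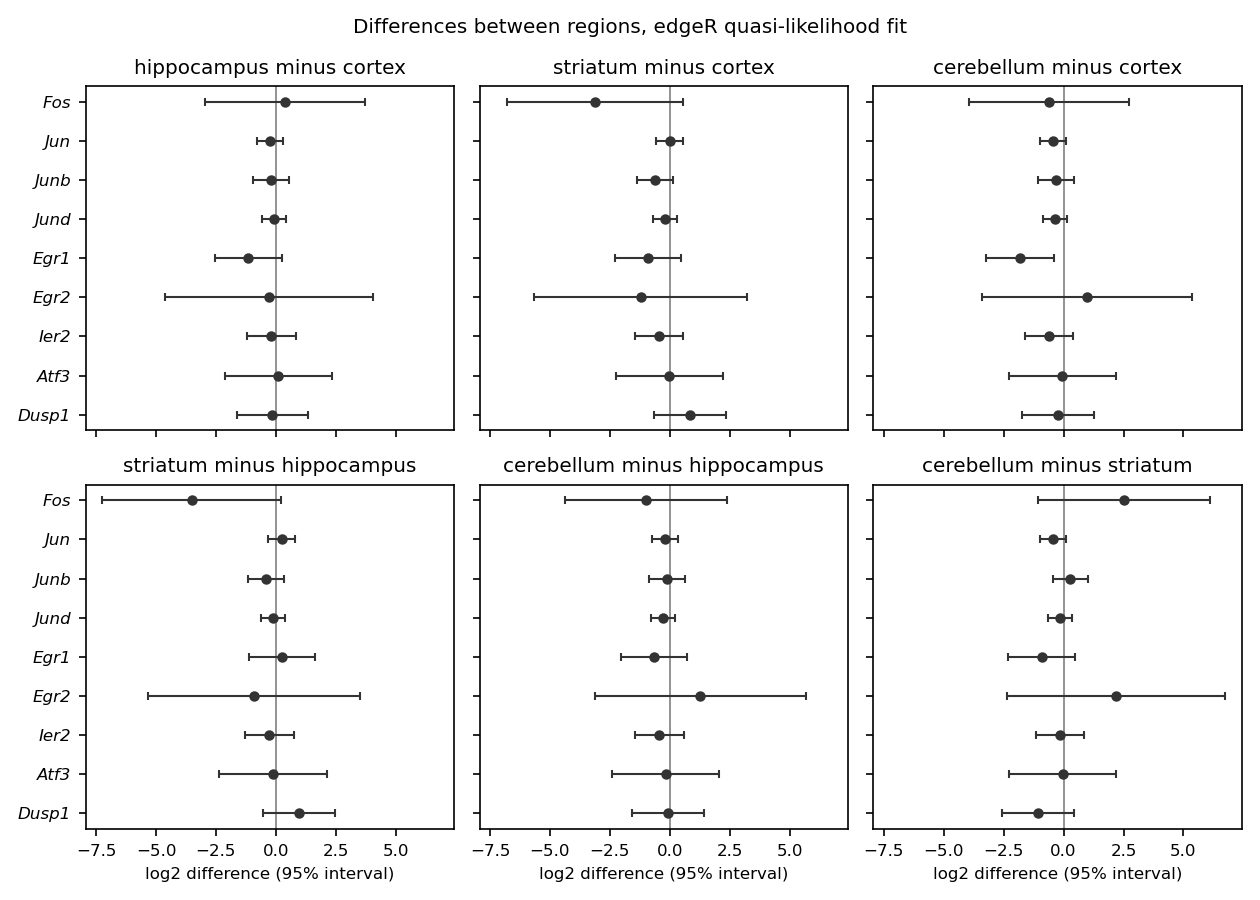
Log2 differences of the 9 tested genes in the 6 pairs of regions (points) with 95% intervals (bars) from the edgeR fit; the vertical line marks no difference. The interval of Egr1 in cerebellum minus cortex is the only one that leaves out 0, and those of Fos, Egr2 and Atf3 are the widest.

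Whether members were high and low in the same libraries was asked for the 36 pairs of the 9 detected genes, on log2 CPM over the 12 libraries. The correlation was positive in 24 pairs, with a median Pearson r of 0.14, and no pair passed after Benjamini-Hochberg adjustment over the 36 (permutation test with 100000 resamples, two-sided). Junb and Ier2 had the smallest p, with Pearson r = 0.77 (permutation p = 0.00229, adjusted p = 0.0824) and Spearman rho = 0.62 (permutation p = 0.0351, adjusted p = 0.355). Leaving out cortex 1 and cerebellum 3, the libraries farthest from the median of Junb, lowered r to 0.53, so the relation leans on those libraries. On deviations from the region means r was 0.79 (exact permutation within regions, adjusted p = 0.222). Jun and Dusp1 followed with r = 0.72 (permutation p = 0.0124, adjusted p = 0.224) and rho = 0.73 (permutation p = 0.00887, adjusted p = 0.319). This r was 0.52 without striatum 2 and cerebellum 2, and 0.49 without striatum 2 alone. Fos and Jun, the classical AP-1 pair, gave r = −0.30 (permutation p = 0.356, adjusted p = 0.642) and rho = −0.09 (permutation p = 0.779, adjusted p = 0.905), and r = 0.04 without the 2 libraries farthest from the median of Fos.

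**Figure D4:**
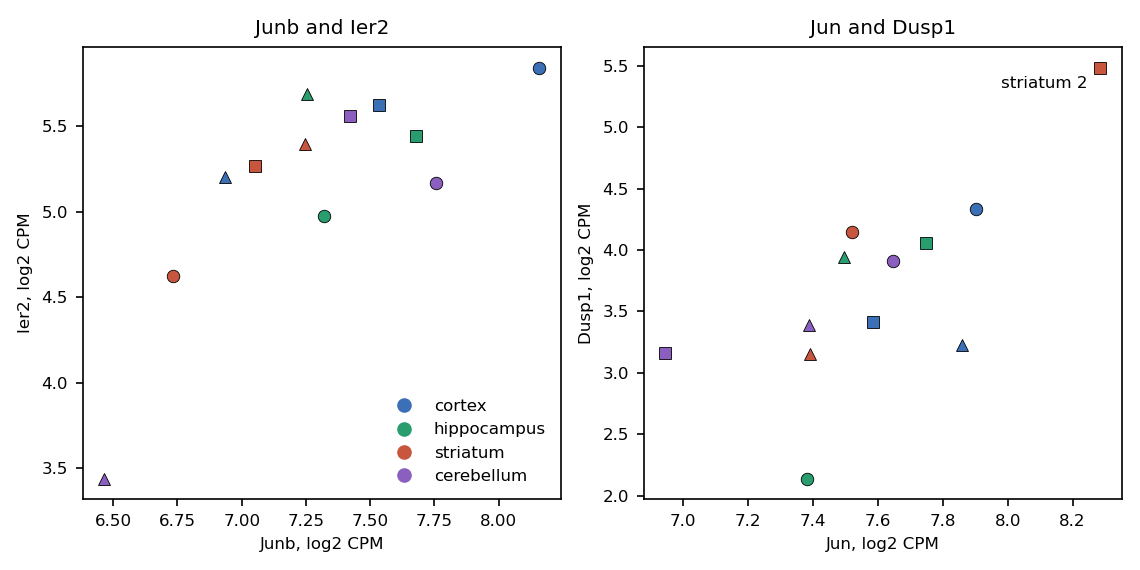
Log2 CPM of Ier2 against Junb and of Dusp1 against Jun in the 12 libraries, coloured by region (circles, squares and triangles are libraries 1, 2 and 3). Ier2 and Junb are both highest in cortex 1 and lowest in cerebellum 3, and striatum 2 lies alone at the top right for Jun and Dusp1.

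The genes whose levels over the 12 libraries were most like the mean of the 9 detected members were Exo1 (r = 0.95), Myh10 (0.94), Coq7 (0.91), Bccip (0.89), Ilvbl (0.89) and Marveld1 (0.89), of 10011 genes compared. Without striatum 2 their r was 0.76 to 0.89. This mean weighs each member equally on the log2 scale, where a count of 0 stood at −2.42, so zeros of Fos, Egr2 and Atf3 weigh heavily. Striatum 2 lay lowest in it (−1.15), although its members summed to 607 CPM and it held most Jun and Dusp1. Single members had other neighbours, named here after their values were seen. Snrpg (r = 0.97), Ndufa5 (0.97) and Ppp1r14b (0.96) were closest to Junb, at 0.97, 0.98 and 0.96 without striatum 2, and Gpi1 (0.94) was closest to Jund. Rnf19a was closest to Atf3 at 0.99 over 12 libraries and 0.81 without striatum 2, where neither had a count. These are the highest of many values, taken over libraries that share depth and preparation, and carry no test.

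Other genes of the response were taken from lists beside the members. Of 11 other AP-1 family genes 9 were tested, and none passed in any comparison. The Fos relative Fosl1 had counts in 1 library (0.237 CPM). Jdp2, a repressor of AP-1, had means of 2.48 ± 2.08 CPM in striatum, 5.52 ± 3.67 in cerebellum, 7.94 ± 2.62 in hippocampus and 9.56 ± 4.94 in cortex. Batf3 was at 18.6 ± 4.94 to 26.5 ± 3.86 CPM and Maff at 0.831 ± 1.34 to 4.19 ± 1.80 CPM by region (SD, n = 3 each). In cerebellum against cortex 8 of these 9 lay lower, with a median of −0.15 (0.01 and 49.1% over all genes), the most of any pair. Against cortex, 6 of 9 lay lower in hippocampus and 6 in striatum. Against hippocampus, 5 lay lower in striatum and 5 in cerebellum. In cerebellum against striatum 4 of 9 lay lower, with a median of 0.15.

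Of 35 other immediate early genes 29 were tested and none passed. Nr4a3 had no count in any library, and Egr3, Egr4 and the neuronal genes Arc and Npas4 stayed at or below 4.14 CPM in each library. The feedback genes Zfp36, which destabilises mRNAs with AU-rich elements, and Dusp6, a MAP kinase phosphatase, were at 119.8 to 169 and 363 to 638 CPM. By the 4-region p, Tob1 came first, at 0.343 ± 0.406 CPM in striatum and 4.04 ± 1.07 to 6.02 ± 3.61 in the other regions (edgeR adjusted p = 1.00), followed by Btg1 and Ier3. In cerebellum against cortex 14 of the 29 lay lower and 15 higher, with a median of 0.04. All 22 upstream kinases and factors were tested without a call. Crtc2, a CREB coactivator, was at 126 ± 72.0 CPM in striatum and 57.2 ± 4.74 to 78.1 ± 15.7 elsewhere, with 208 CPM in striatum 2 (edgeR adjusted p = 1.00).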

How the data were processed

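The values analysed are the authors' deposited counts, whole numbers of reads for each gene symbol and library, not normalized. Per the labels' protocols the authors made cDNA with Smart-Seq v4, which does not mark strand, and Nextera XT libraries for a NextSeq. Per the submitters' processing notes, the tools were STAR 2.5.3a, HTSeq, Trim Galore 0.4.3 and Picard, on mm10. Gene annotation and strand setting: not given in the sources used here.

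The test was that of edgeR 4.0.16 (R 4.3.3), after filterByExpr on the regions (at least 10 counts, total at least 15), with TMM scaling and the robust quasi-likelihood test on a mean for each region over all 12 libraries, with Benjamini-Hochberg adjustment over the 12217 genes tested and a threshold of 0.05. CPM values use TMM-scaled library sizes. Correlations used log2 CPM (prior count 2). A count of 0 was read as up to 3 counts, and this and other depth limits cover counting error only, since reads carry no molecular identifiers. Transcript lengths, exons and 3′ UTRs came from GENCODE M21 (longest coding sequence per gene). No 2 libraries of a region were duplicates: over 12 pairs, chi-square divided by its degrees of freedom was 32.5 to 93.3. Fits were tested on simulated data. Alternatives were RLE scaling, DESeq2 1.42.0, limma-voom (limma 3.58.1), no filter, the replicate number as a block and leaving out each library. Whether replicate numbers pair libraries was checked by correlating deviations from region means: for cortex and cerebellum r was 0.10 to 0.29 in all 3 same-numbered pairs, so a paired fit of these 6 libraries was added, although the labels name no shared batch. The members and lists were chosen with earlier results of these data known. All 10 members are named, each with the pair of regions with its smallest p, and from each other list up to 3 genes with the smallest 4-region p. Other names were chosen after their values were seen. A gene that this rule names is not reported here.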

Additional observations from a re-analysis of the deposited data

How the results depend on the processing

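No member was called under any of the alternatives. In all genes, edgeR called 0 in the 4-region test and in each of the 6 pairs, with 222, 124, 683, 189, 530, 156 and 293 genes at an unadjusted p under 0.05 (4 regions, hippocampus, striatum and cerebellum minus cortex, striatum and cerebellum minus hippocampus, cerebellum minus striatum). DESeq2 called 5 genes over the 4 regions, 5 in hippocampus minus cortex, 13 in striatum minus cortex, 7 in cerebellum minus cortex, 2 in cerebellum minus hippocampus and 3 in cerebellum minus striatum, and 0 in striatum minus hippocampus. RLE scaling, limma-voom, no filter and each fit without a library gave 0 in all 7. With the replicate number as a block, edgeR also called 0 in all 7, and 0 in the 6 cortex and cerebellum libraries alone with and without the block (843 and 182 genes at an unadjusted p under 0.05). Deviations of same-numbered libraries correlated at −0.12 to 0.29. Of 18 pairs of libraries 4 were over 0.1, all 3 of cortex with cerebellum among them, and 7 of 12 libraries correlated best with their own number. For the other pairs of regions the libraries share only a number. Of the 54 log2 differences of members, 24 changed sign under at least 1 of 17 alternatives; the cause was not tested. Among each member's pair of regions with the smallest p, that of Atf3 did, in cerebellum minus hippocampus, from −0.16 to 0.11 without cerebellum replicate 2 (−0.43 without cerebellum replicate 3). Between 0 and 1 pairs of members passed in the correlation test without a library, the pair being Junb and Ier2 without hippocampus replicate 3 (permutation test, r = 0.80, adjusted p = 0.0428; 0.0526 to 0.229 without other libraries), and 0 with the replicate block. Egr1 in cerebellum minus cortex ranged from −2.14 to −1.46 over all settings. Differences of Fos and Egr2 were not measurable with any precision, with 3 libraries a region and a wide spread within regions. Counts of 0, which allow up to 0.485 CPM, stood beside higher values in the same region. Egr2, for example, had no count in cortex 1 and was at 2.20 and 3.87 CPM in cortex 2 and 3.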

Other observations

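Heat shock genes, which code for protein chaperones and are induced by warmth and by protein damage, were examined as a second group known to be sensitive to cell isolation. The strongly inducible Hspa1a and Hspa1b were at most 0.396 and 1.60 CPM in any library. Of 10 tested heat shock genes 9 lay lower in cerebellum than in cortex (median log2 difference −0.31, against 0.01 over all genes). The libraries did not overlap for 4 of them, Hsp90aa1, Hspd1, Hspe1 and Hsph1 (2.93% of all genes lay lower in this way). Hspe1 separated narrowly, with cortex 3 at 55.3 CPM and cerebellum 2 at 55.2 CPM. Most of these genes lay lower in some other pairs as well. The counts of this list were not repeated with single libraries, such as striatum 2, left out. In striatum 9 of 10 lay lower than in cortex (median −0.27, −0.06 over all genes) and 9 than in hippocampus (−0.32, −0.05). In cerebellum 8 of 10 lay lower than in hippocampus (−0.33, 0.01). In hippocampus against cortex and in cerebellum against striatum 5 of 10 did. Hspd1, a mitochondrial chaperone, had a mean of 159 ± 8.78 CPM in cortex against 111 ± 14.4 in cerebellum (SD, n = 3 each). None passed the test (edgeR adjusted p = 1.00 over the 4 regions for Hspd1, Hsp90ab1 and Hspe1).

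Cytokine genes known to rise during isolation (12 in the list, 10 tested) summed to 419 to 426 CPM in the cortex libraries and 395 to 425 in hippocampus, above 308 to 365 in striatum and 283 to 361 in cerebellum, a separation seen after the values were known and not tested. Most of each sum came from Il1a (94.2 to 200.2 CPM over the libraries) and Ccl12 (81.4 to 183 CPM). The monocyte chemoattractant Ccl2 had a mean of 7.17 ± 6.22 CPM in striatum, 10.1 ± 4.98 in cerebellum, 14.8 ± 3.22 in hippocampus and 29.8 ± 3.54 in cortex (edgeR adjusted p = 1.00 over the 4 regions). Il6, which had the smallest 4-region p of the list, had a mean of 0.106 ± 0.183 CPM in striatum, 1.34 ± 0.536 in cortex, 2.34 ± 1.67 in cerebellum and 2.67 ± 0.328 in hippocampus, so its order differed from that of Ccl2 (edgeR adjusted p = 1.00). Cxcl2 had no count in any library and Cxcl1 had counts in 1.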
